A study of Mus musculus with 14 samples.

Results

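The SMAD family genes of the mouse are described here across the cell types of the retina and of the brain, in control mice and in mice that lost *Tgfbr1* in endothelial cells (ECs). The members are the 8 genes *Smad1*, *Smad2*, *Smad3*, *Smad4*, *Smad5*, *Smad6*, *Smad7* and *Smad9*, picked by gene name, and all 8 are present among the 28316 genes of the retina table and the 26528 genes of the brain table. For each cell type label and library, the UMIs (counted transcript molecules) of a gene were summed over nuclei and divided by all UMIs of those nuclei, which gives CPM, the share of all UMIs on a common scale.

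Nuclei of whole retinas and of vascular fragments enriched from the brain were profiled by snRNAseq to learn what loss of TGF-beta signaling in ECs does to the cells of the central nervous system. The CKO group was *Cdh5CreER;Tgfbr1 CKO/-* (labelled Tgfbr1-CKO), with 1 conditional allele, 1 null allele that every cell carried from the germline, and a Cre driven by the *Cdh5* promoter of ECs and activated with 4-hydroxytamoxifen (4HT) from P3 to P5. The control group was labelled wild type, was phenotypically wild type and is listed with 4HT on the same days. The study's controls of this kind typically carried *Cdh5CreER;Tgfbr1 CKO/+*, but the exact genotype of the control libraries was not stated. Tissue was taken at P14 by the study's methods, whereas the series text calls the mice young adults. The retina gave 1 control and 11 CKO libraries, with the number of mice behind each not stated, and the brain gave 1 control and 1 CKO library, each from the pooled fragments of 2 brains. The retina labels include no ECs, the cells in which Cre was active, so the retina values describe neighbouring cell types.

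SMAD proteins carry the signal of TGF-beta and BMP receptors to the nucleus. SMAD2 and SMAD3 act mainly below the TGF-beta and activin receptors, SMAD1, SMAD5 and SMAD9 mainly below the BMP receptors, and both groups bind the shared partner SMAD4 to regulate target genes. SMAD6 and SMAD7 are inhibitory members, which the pathway commonly induces as negative feedback, and in ECs both branches are active and shape vessel growth and stability.

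Retina libraries held between 90449 and 55803724 UMIs, with 30989702 in the control library, and the control brain library held 49798325 UMIs and the CKO brain library 31033373. The library of CKO replicate 4 stood apart, with 104 nuclei, and it passed the minimum of 20 nuclei per cell type only for RGC and Immune_cells. Of 77666 retina barcodes, 10 occurred in 2 or more libraries, as did 2 of 31322 brain barcodes. The control and CKO replicates 1 to 3 form the batch numbered 1 by the authors, and the kit was v5 for CKO replicates 8 to 11 and v4PLUS otherwise. Sex-linked genes differed between the brain libraries: *Xist* was at 1963 CPM in the control and 1.29 CPM in the CKO, and *Uty* at 64.5 and 133 CPM, so genotype and the sex makeup of the pools cannot be told apart there. In the retina, *Xist* was at 6779 CPM in the control, whereas it was at 12.9 CPM or below, with *Uty* between 239.75 and 316 CPM, in CKO replicates 3, 5, 6 and 8 to 11. Sex is thus also unbalanced in the retina comparison, and its part was not tested.

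Many labels matched their markers, with several exceptions. Nuclei labelled ECs led in endothelial markers (10914 CPM summed over 9 of 9 genes in the control and 9175 CPM in the CKO, most of it *Flt1*). They also held pericyte markers at 8400 and 7157 CPM (8 of 8 genes, most abundant *Rgs5*), so the label mixes signals of both cell types. The vSMCs label led in smooth muscle markers, at 5083 CPM in the control and 4591 CPM in the CKO, beside endothelial markers at 4415 and 4610 CPM. The label glia held fibroblast markers at 3774 and 3896 CPM, led by *Col1a2*, above astrocyte markers at 2529 and 2907 CPM. In CP_6, ependymal markers (3954 and 3982 CPM) exceeded choroid plexus markers (3612 and 1726 CPM), and in Glut_14 GABAergic markers (649 and 651 CPM) exceeded glutamatergic ones (18.1 and 20.0 CPM). Glutamatergic markers did not lead in Glut_1, Glut_5 or Glut_21 either, and in the retina the leading list, by its level over the mean of all labels, was ependymal in Gly_AC, oligodendrocyte in CBC and endothelial in MG. Labels are therefore used below only as names of groups of nuclei. Retinal Müller glia (MG) held their own markers at a mean of 2614 CPM, and their endothelial list reached 1209 CPM, mostly through *Flt1*, with *Cldn5*, *Cdh5* and *Tie1* at 0 in the control library.

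In the GRCm39 annotation, *Smad1* lies on chromosome 8 from 80065023 to 80126168, *Smad5* on chromosome 13 from 56850797 to 56890190, and *Smad9* on chromosome 3 from 54662963 to 54708680. *Smad3* (63554049 to 63665476) and *Smad6* (63860341 to 63929793) are neighbours on chromosome 9, both on the minus strand. *Smad2* (76374327 to 76445180), *Smad4* (73769343 to 73836915) and *Smad7* (75500374 to 75529006) share chromosome 18. Only *Smad4* overlaps another gene present in the tables, *Gm32548* on the opposite strand, which had 2 UMIs in the brain and 9 in the retina.

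*Tgfbr1*, the deleted receptor gene, was read first as a check of the labels. In brain ECs it was at 69.1 CPM in the control and 62.9 CPM in the CKO, a ratio of 0.910 (95% interval, 0.793 to 1.05). In the retina the control lay above every CKO library in 4 of 10 cell types, for example in Rods (113.7 CPM against 85.4, 88.3 and 102 CPM as the lowest, median and highest CKO) and in MG (97.3 CPM against 55.8, 81.5 and 89.7 CPM), and above the CKO median in 8 of 10. These counts come from the 3′ end of the transcript and do not test whether the loxP-flanked part was removed.

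In brain ECs the inhibitory genes *Smad7* and *Smad6* were lower in the CKO library than in the control, *Smad1* was higher, and *Smad2*, *Smad3*, *Smad4* and *Smad5* differed by less than 1.5-fold. Of the 7 members with at least 200 UMIs over both libraries, 1 reached a CKO over control ratio of 1.5, against 16.1% of the 7924 genes with that many UMIs, and 2 fell to 1/1.5 or below, against 6.89% of them. At a fold of 2 only *Smad7* was past, with 7.71% of all genes. The median log2 ratio was 0.19 over the 7 members and 0.12 over all 7924 genes. With 1 library per genotype no difference was tested, and the intervals given (95%, exact conditional binomial for ratios, exact Poisson for single values) cover counting error only. The control held 2475 EC nuclei with 5801552 UMIs and the CKO 2944 nuclei with 6851854 UMIs.

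*Smad7*, which blocks both branches at the receptor, was at 199.95 CPM in control ECs and 80.0 CPM in CKO ECs. The CKO over control ratio was 0.400 (0.361 to 0.443), at percentile 1.22 of the ratios of all genes compared. *Smad6*, which acts mainly on the BMP branch, was at 79.3 CPM in the control and 48.3 CPM in the CKO. Its ratio was 0.609 (0.527 to 0.703), at percentile 5.16. For both genes the Poisson intervals of the libraries did not overlap.

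Among the BMP-branch members, *Smad1* was at 158 CPM in control ECs (147 to 168) and 254 CPM in CKO ECs (242 to 266). The ratio of *Smad1* was 1.61 (1.48 to 1.75), at percentile 87.6, in a comparison in which 16.1% of genes reached 1.5. *Smad5* was at 148 and 149 CPM, a ratio of 1.01 (0.921 to 1.11). The 3rd member of this branch, *Smad9*, was close to absent from ECs, with 1 UMI in the control and 12 in the CKO, a ratio of 10.2 whose interval ran from 1.503 to 434.

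The TGF-beta-branch members and the shared partner lay closer to the control. *Smad2* was at 55.7 CPM in the control and 63.5 CPM in the CKO, with a ratio of 1.14 (0.985 to 1.32). *Smad3* was at 88.8 and 109 CPM, with a ratio of 1.22 (1.09 to 1.37), and *Smad4* at 159 and 183 CPM, with a ratio of 1.15 (1.06 to 1.26). Scaling by TMM, which shifts EC log2 ratios by 0.10, lowered these ratios to 1.06, 1.14 and 1.07, that of *Smad5* to 0.939 and that of *Smad1* to 1.497, just under the fold used. With every nucleus weighted equally, the *Smad2* and *Smad4* ratios were 1.41 and 1.38.

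Other signals differed between the EC sums as well. Cell cycle markers (9 of 9 genes, most abundant *Top2a*) were at 328 CPM in the control and 618 CPM in the CKO, and fibroblast markers (5 of 5, most abundant *Col1a2*) at 614 and 434 CPM. Smooth muscle markers (4 of 5 genes, *Cnn1* at 0, most abundant *Mylk*) were at 338 and 312 CPM. In EC nuclei without a cell cycle marker UMI the ratios were 1.47 for *Smad1*, 0.576 for *Smad6* and 0.409 for *Smad7*, and in those without a smooth muscle marker UMI 1.44, 0.541 and 0.344. In the 449 control and 177 CKO nuclei whose pericyte markers made up under 10% of pericyte and endothelial marker UMIs, *Smad7* had 121 and 3 UMIs (ratio 0.0566), *Smad6* 64 and 5 (ratio 0.178), and *Smad1* 82 and 82 (ratio 2.28). In these nuclei *Smad5* and *Smad2* also lay past 1.5-fold, with 47 and 10 UMIs for *Smad5* (ratio 0.485, 0.219 to 0.974) and 17 and 15 for *Smad2* (ratio 2.01, 0.936 to 4.29), but so did 57.2% of the 437 genes with at least 200 UMIs there. The part of fibroblast markers in these results was not tested.

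Receptors, SMAD regulators and SMAD targets, gathered in lists, gave the setting of these values in ECs. Of 10 receptors with at least 100 UMIs, 3 were past 1.5-fold upward and 1 downward, with a median log2 ratio of 0.10, beside 16.1% and 6.89% of all genes with at least 200 UMIs. *Tgfbr2*, the type II TGF-beta receptor, was at 396 CPM in the control and 742 CPM in the CKO (ratio 1.87). The co-receptor *Tgfbr3* was at 120 and 351 CPM (ratio 2.92), the activin receptor *Acvr2a* at 40.2 and 66.3 CPM (ratio 1.65), and the EC co-receptor *Eng* at 775 and 515 CPM (ratio 0.665). Receptors past the fold thus lay on both sides of the control. At a fold of 2, 1 receptor was past upward and 0 downward, where 422 and 189 of all 7924 genes were. At the lowest fold tried, 5 and 3 receptors were past, where 2501 and 1205 of all 7924 genes were. Over the other alternatives, 2 to 4 receptors were past upward and 0 to 3 downward.

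Of 28 SMAD regulators, 2 were past 1.5-fold upward and 4 downward (median log2 ratio 0.17), which for all genes was 16.1% and 6.89%. The repressor of SMAD signaling *Skil* was at 168 CPM in the control and 30.9 CPM in the CKO (ratio 0.185), and its relative *Ski* at 242 and 156 CPM (ratio 0.646). *Pmepa1*, which binds SMAD2 and SMAD3 at the membrane, was at 283 and 70.5 CPM (ratio 0.249), and its relative *Ldlrad4* at 397 and 209 CPM (ratio 0.527). The regulators above the fold were *Lemd3*, an inner nuclear membrane protein that binds SMADs, at 46.0 and 77.8 CPM (ratio 1.69), and the corepressor *Tgif2* at 7.93 and 15.3 CPM (ratio 1.93). Of 14 targets, 0 were past the fold upward and 6 downward, with a median log2 ratio of −0.46. Besides *Skil*, *Pmepa1* and *Ldlrad4*, which both lists hold, these included *Fn1* (1849.8 and 503 CPM, ratio 0.272) and *Id1* (819.6 and 469 CPM, ratio 0.572). All genes of the comparison had a median log2 ratio of 0.12, and *Smad6* and *Smad7* moved in the direction of these targets. At a fold of 2 the regulators past it were 0 upward and 2 downward and the targets 0 and 4. Of all 7924 genes, 422 and 189 were past that fold. At the lowest fold tried the regulators were 5 and 8 and the targets 2 and 8, where 2501 and 1205 of all genes were past. With nuclei weighted equally, 4 of 28 regulators were past upward and 5 downward, where 2925 and 700 of all 7924 genes were. In nuclei with few pericyte markers 1 of 5 regulators was past upward and 3 downward, with 1 and 4 of 6 targets, where 53 of 437 genes were up and 197 down.

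In the other brain labels the members that could be compared lay mostly within 1.5-fold. In CP_6, 0 of 3 members passed the fold (4.72% of all genes there), in glia 0 of 3 (28.9%), in vSMCs 0 of 3 (17.0%) and in GABA_9 0 of 2 (5.36%). The inhibitory genes in vSMCs were at 151 CPM in the control and 116 CPM in the CKO for *Smad6*, with a ratio of 0.771 (0.509 to 1.13), and at 133 and 116 CPM for *Smad7*, with a ratio of 0.876 (0.576 to 1.29). *Smad3* in glia was at 170.3 CPM in the control and 120.2 CPM in the CKO, a ratio of 0.706. TMM scaling, with a log2 shift of 0.216 in glia, took *Smad3* there past the fold downward. In glia, *Smad6* was at 154 and 136 CPM, and in oligodendrocytes *Smad7* was at 357 and 432 CPM, a ratio of 1.21 (1.05 to 1.39). Whether these ratios differ from those of ECs was not tested.

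Without TMM scaling, the exceptions were neuronal labels. In Glut_0, 3 of 4 members passed the fold, against 9.77% of all genes: *Smad1* was at 28.1 CPM in the control and 13.6 CPM in the CKO (ratio 0.485, 0.388 to 0.602), *Smad4* at 18.1 and 11.9 CPM (ratio 0.661, 0.515 to 0.843), and *Smad3* at 23.0 and 37.9 CPM (ratio 1.65, 1.40 to 1.95). *Smad2* in Glut_0 was at 30.1 and 23.8 CPM. Under TMM scaling, with a log2 shift of −0.0379 in Glut_0, *Smad4* fell just inside the fold, whereas *Smad1* and *Smad3* stayed past it. In Glut_1, 1 of 2 members passed, against 8.06%: *Smad1* was at 60.2 and 38.9 CPM (ratio 0.646, 0.538 to 0.774), and *Smad2* at 28.7 and 22.6 CPM. TMM scaling, with a log2 shift of −0.0622 in Glut_1, brought *Smad1* just inside the fold, so that neither member there was then past it. Endothelial markers were near 0 in both labels (7.14 and 4.95 CPM in Glut_0, 6.06 and 0.226 CPM in Glut_1). Glutamatergic markers in Glut_0 were at 149 and 168 CPM. In Glut_1 they were at 97.4 CPM in each library, below GABAergic markers at 192 and 204 CPM. Astrocyte markers in Glut_0 were at 528 CPM in the control and 403 CPM in the CKO and in Glut_1 at 144 and 77.3 CPM, and their part in these values was not tested.

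**Figure D1:**
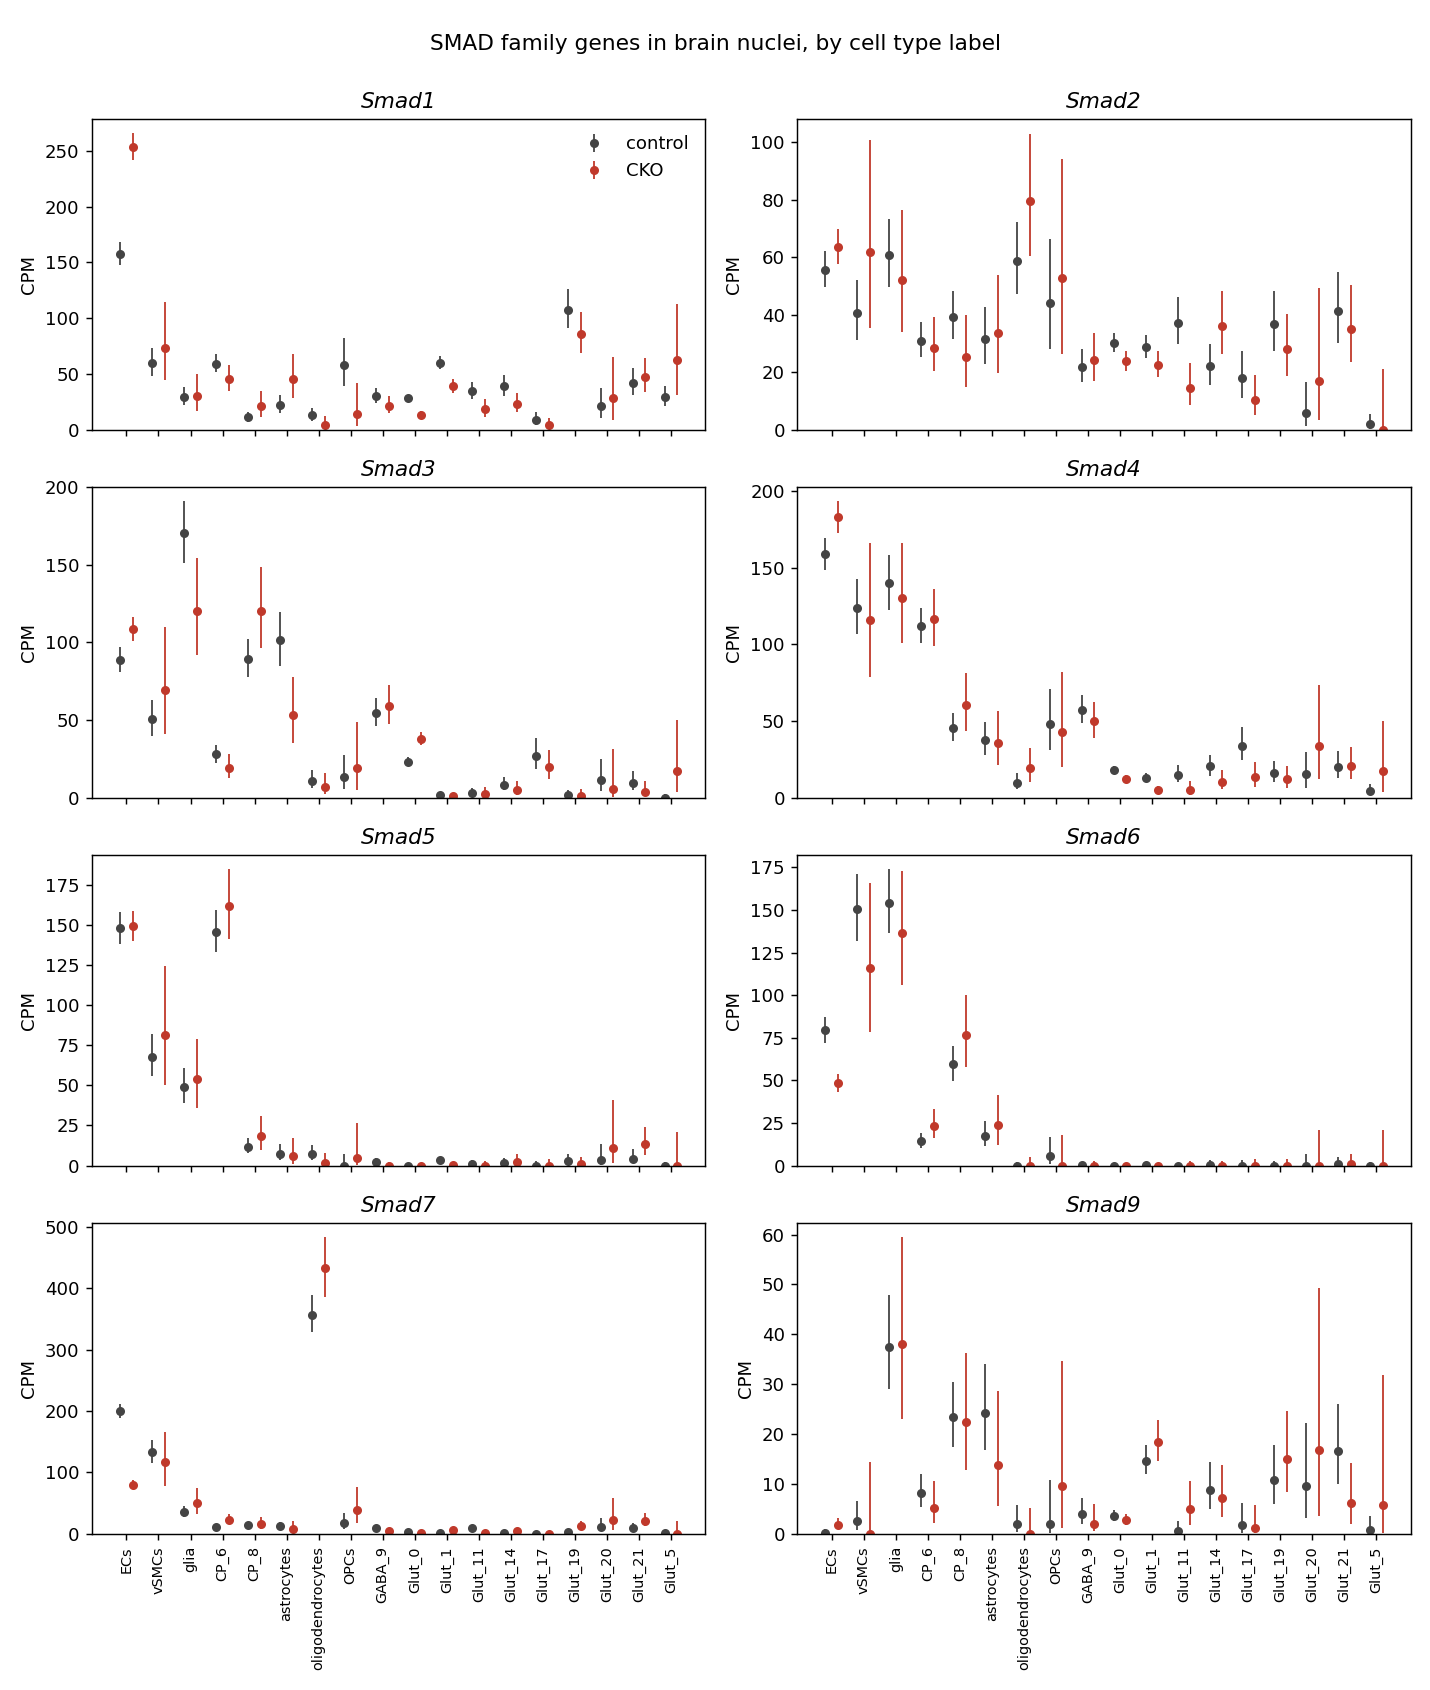
CPM (vertical axis) of each SMAD gene in the 18 brain labels with at least 100000 UMIs in both libraries (horizontal axis), with the control in grey, the CKO in red, and exact 95% Poisson intervals of 1 library per genotype as bars. In ECs, *Smad7* lies at 199.95 CPM in the control and 80.0 CPM in the CKO, and *Smad1* at 158 and 254 CPM.

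Across the 18 brain labels of that plot, the BMP-branch members were highest in different places. *Smad1* in the control was highest in ECs, followed by Glut_19 at 108 CPM and Glut_1 at 60.2 CPM, and lowest in Glut_17 at 8.48 CPM. Only ECs and Glut_19 stood clear of the label after them in that order, since 15 of the 17 pairs of neighbouring labels had overlapping intervals. In the CKO, *Smad1* was again highest in ECs and then in Glut_19 at 85.7 CPM. *Smad5* was nearly confined to 4 labels in the control, ECs at 148 CPM, CP_6 at 146 CPM, vSMCs at 67.9 CPM and glia at 49.1 CPM, with CP_8 next at 11.9 CPM and all others at 7.34 CPM or below. ECs and CP_6 overlapped, and in the CKO CP_6 (162 CPM) stood before ECs (149 CPM), again overlapping. *Smad9* was highest in glia, at 37.5 CPM in the control and 38.1 CPM in the CKO, followed by astrocytes (24.2 CPM) and CP_8 (23.3 CPM) in the control and by CP_8 (22.4 CPM) and Glut_1 (18.3 CPM) in the CKO, and all 17 pairs of neighbours overlapped in each library.

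The TGF-beta-branch members and *Smad4* had broader orders. For *Smad2*, as for *Smad9*, all 17 neighbouring pairs overlapped in both libraries. *Smad2* was highest in glia (60.6 CPM), oligodendrocytes (58.7 CPM) and ECs (55.7 CPM) of the control and lowest in Glut_5 (1.88 CPM). *Smad3* was highest in glia at 170.3 CPM, then in astrocytes at 101 CPM, CP_8 at 89.3 CPM and ECs at 88.8 CPM, and it was at 0 UMIs in Glut_5 of the control (upper limit 2.31 CPM). In the CKO glia, CP_8 and ECs led with 120.2, 120.2 and 109 CPM, and astrocytes were at 53.4 CPM. *Smad4* was highest in ECs (159 CPM), glia (140 CPM), vSMCs (123 CPM) and CP_6 (112 CPM) of the control, each overlapping the next, and a gap separated these from GABA_9 at 57.0 CPM. In the CKO, ECs (183 CPM) stood clear of glia (130 CPM).

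The inhibitory members were concentrated in few labels. *Smad6* in the control was highest in glia (154 CPM) and vSMCs (151 CPM), which overlapped, then in ECs (79.3 CPM), CP_8 (59.4 CPM) and astrocytes (17.6 CPM), with CP_6 at 14.2 CPM, OPCs at 5.76 CPM and every other label under 1 CPM. In the CKO, CP_8 (76.9 CPM) stood before ECs (48.3 CPM), with intervals that did not overlap. *Smad7* was highest in oligodendrocytes (357 CPM), then ECs (199.95 CPM), vSMCs (133 CPM) and glia (34.6 CPM), each clear of the label before it, and the remaining 14 labels lay at 17.3 CPM or below. In the CKO oligodendrocytes remained first at 432 CPM, and vSMCs (116 CPM) stood before ECs (80.0 CPM), overlapping. Left out of these orders were pericytes, microglia and GABA_22, which had 22, 11 and 53 nuclei in the CKO, and for *Smad7* the pericytes held 3 control UMIs and 0 CKO UMIs.

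In the retina, the question was whether cells around the altered vessels changed their SMAD genes. UMIs were summed per library and cell type and tested with edgeR's quasi-likelihood test, with batch as covariate, in the 10 cell types in which the control had at least 20 nuclei. Of 61 tests of members, 0 had an adjusted p under 0.05, against 0.00575% (7 of 121773) of all gene tests. At an unadjusted p under 0.05 there was 1 member test of 61, against 2.95% of all tests, and DESeq2 called 0 members and 66 gene tests in all. Over 12 alternatives members called were 0, and gene tests called in all ranged from 4 (without CKO replicate 2) to 244 (no filter on low counts). The median log2 fold change of the members was 0.00, with 30 tests above 0 and 31 below. With a single control library, these tests assume that it varies as the CKO libraries do, and batch 1 alone holds both genotypes, so small differences could not be detected.

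The test with the lowest p was that of *Smad6* in MG. The control was at 41.7 CPM (63 UMIs), and the CKO libraries had a lowest value of 17.9, a median of 37.5 and a highest of 46.6 CPM. The 3 CKO libraries of batch 1, which share their batch with the control, were at 19.0, 19.3 and 17.9 CPM, from 25, 9 and 9 UMIs, and the other 7 between 36.8 and 46.6 CPM. The CKO libraries of the other batches thus lay on both sides of the control, 5 of 7 below it, and those of its own batch were the lowest. The log2 fold change with batch as covariate was −1.21 (SE 0.31, edgeR adjusted p = 0.441 over all genes of the fit, 3 of 3 batch 1 libraries lower), and without a covariate it was −0.36 (adjusted p = 0.992). The endothelial list in MG was at 1290.4 CPM in the control and between 1088 and 1185 CPM in the CKO libraries of batch 1. Mueller glia markers were at 2799 CPM in the control and between 2267 and 3000.3 CPM in those libraries, and the part of either list in the *Smad6* values was not tested.

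Compared without a model, the control stood at the smallest p of an exact two-sided permutation test over libraries in 2 of 64 member tests, against 4.65% of 127567 tests of all genes with at least 50 UMIs. Both were in Immune_cells, where the control had 29 nuclei. *Smad1* was at 34.9 CPM in the control, from 4 UMIs, and at 42.8, 62.0 and 77.8 CPM as the lowest, median and highest CKO library. *Smad3* was at 105 CPM in the control, from 12 UMIs, and at 0, 39.0 and 80.9 CPM in the CKO. The Poisson interval of the *Smad1* control value (9.52 to 89.5 CPM) covers all CKO values, whereas that of *Smad3* (54.2 to 183 CPM) lies above the CKO median. That smallest p is 0.0833 to 0.0909 here, so the test cannot reach 0.05. With libraries of the batch of the control only, 12 of 54 member tests stood at the smallest p (22.2%, and 20.8% of all genes), and with its kit only 4 of 63 (7.12% of all genes). By the study, the control retinas contributed microglia alone to this immune label, while the CKO retinas added further leukocyte types. A change within a cell type and a different mix of immune cells therefore cannot be told apart in Immune_cells.

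A control outside the range of the CKO libraries, whatever its p, was seen in 9 of 64 member tests (11.4% of the tests of all genes), 1 above and 8 below, where all genes had 5919 above and 8613 below. Besides the 2 in Immune_cells, these were *Smad2* in HC, Immune_cells, MG and RBC, *Smad3* in HC and *Smad5* in Immune_cells and RBC, all with the control below. In RBC, *Smad5* was at 16.7 CPM in the control and at 19.95, 31.6 and 47.5 CPM as the lowest, median and highest CKO library, and *Smad2* in MG was at 64.9 CPM against 65.3, 83.6 and 110.25 CPM. Among libraries of the kit of the control there were 19 of 63 such tests (18.8% of all genes), 10 above and 9 below, where all genes had 10923 above and 10331 below. Among those of its batch there were 26 of 54 (46.5%), 18 above and 8 below, where all genes had 18690 above and 24325 below. The side that prevailed among members thus changed with the libraries compared.

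Member by member, the fitted log2 fold changes spread around 0 in the retina. *Smad1* ranged from −0.33 in HC to 0.76 in Immune_cells (median −0.01, 10 cell types) and *Smad5* from −0.66 in Cones to 1.27 in Immune_cells (median 0.00, 10 cell types). *Smad9* passed the filter on low counts in 4 cell types and ranged from −0.63 in GABA_AC to 0.35 in CBC. The TGF-beta-branch gene *Smad2* ranged from −0.20 in GABA_AC to 0.84 in Immune_cells (10 cell types), and *Smad3* from −1.88 in Immune_cells to 0.93 in MG (8 cell types). *Smad4* had the narrowest range of the members tested in 10 cell types, from −0.29 in Immune_cells to 0.20 in MG. *Smad6* passed the filter in MG and Rods only, with −0.03 in Rods, and *Smad7* in 7 cell types, from −0.61 in CBC to 0.47 in MG. The 2 values farthest from 0 thus came from Immune_cells, where the mix of cells differed between genotypes. None of these had an adjusted p under 0.05 in edgeR or in DESeq2.

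The other pathway lists gave 0 calls in the retina in edgeR. At an unadjusted p under 0.05 there were 4 of 93 receptor tests, 6 of 256 regulator tests and 10 of 72 target tests, against 2.95% of all tests, and the lowest adjusted p were 0.579, 0.632 and 0.169. Median log2 fold changes of the lists were −0.03, 0.00 and 0.17.

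Levels in the retina moved with the library kit. Over all nuclei of a library, leaving out CKO replicate 4, *Smad2* was at 57.9 CPM in the control and between 55.0 and 66.7 CPM in the 6 CKO libraries of the v4PLUS kit, and between 89.3 and 90.5 CPM in the 4 libraries of the v5 kit. *Smad4* was at 72.1 CPM in the control, 71.2 to 78.6 CPM in the v4PLUS CKO libraries and 103 to 113 CPM in the v5 libraries. *Smad5* was at 35.4, 30.5 to 36.1 and 53.6 to 59.9 CPM in the same order. These 3 genes were thus higher in every v5 library than in every other, and within batch 3, which holds both kits, *Smad4* and *Smad5* were higher in all v5 libraries in 9 of 10 cell types and *Smad2* in 7. The share of all genes with such a difference was not computed, so whether it is particular to these genes is not known.

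The other members followed the kit less. *Smad1* was at 50.0 CPM in the control, 44.2 to 51.8 CPM in v4PLUS and 50.9 to 58.5 CPM in v5 libraries, *Smad7* at 9.84, 8.08 to 12.1 and 10.03 to 12.1 CPM, and *Smad9* at 2.36, 2.25 to 2.98 and 2.24 to 2.99 CPM. *Smad3* and *Smad6* differed by batch instead. *Smad3* was at 26.9 CPM in the control and 21.5 to 30.3 CPM in the CKO libraries of batch 1, and between 35.8 and 44.7 CPM in those of batch 3. *Smad6* was at 3.55 CPM in the control and 2.32 to 2.59 CPM in the CKO libraries of batch 1, and between 4.10 and 6.50 CPM in batch 3. The share of all genes that separate these batches was not computed, so whether this is particular to *Smad3* and *Smad6* is not known. The median UMIs per nucleus were 2717 to 4041 in v5 libraries and 1183 to 2029 in v4PLUS libraries other than replicate 4, and the part of depth in the differences between kits was not tested. No v5 library was a control, so genotype was not compared within that kit.

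**Figure D2:**
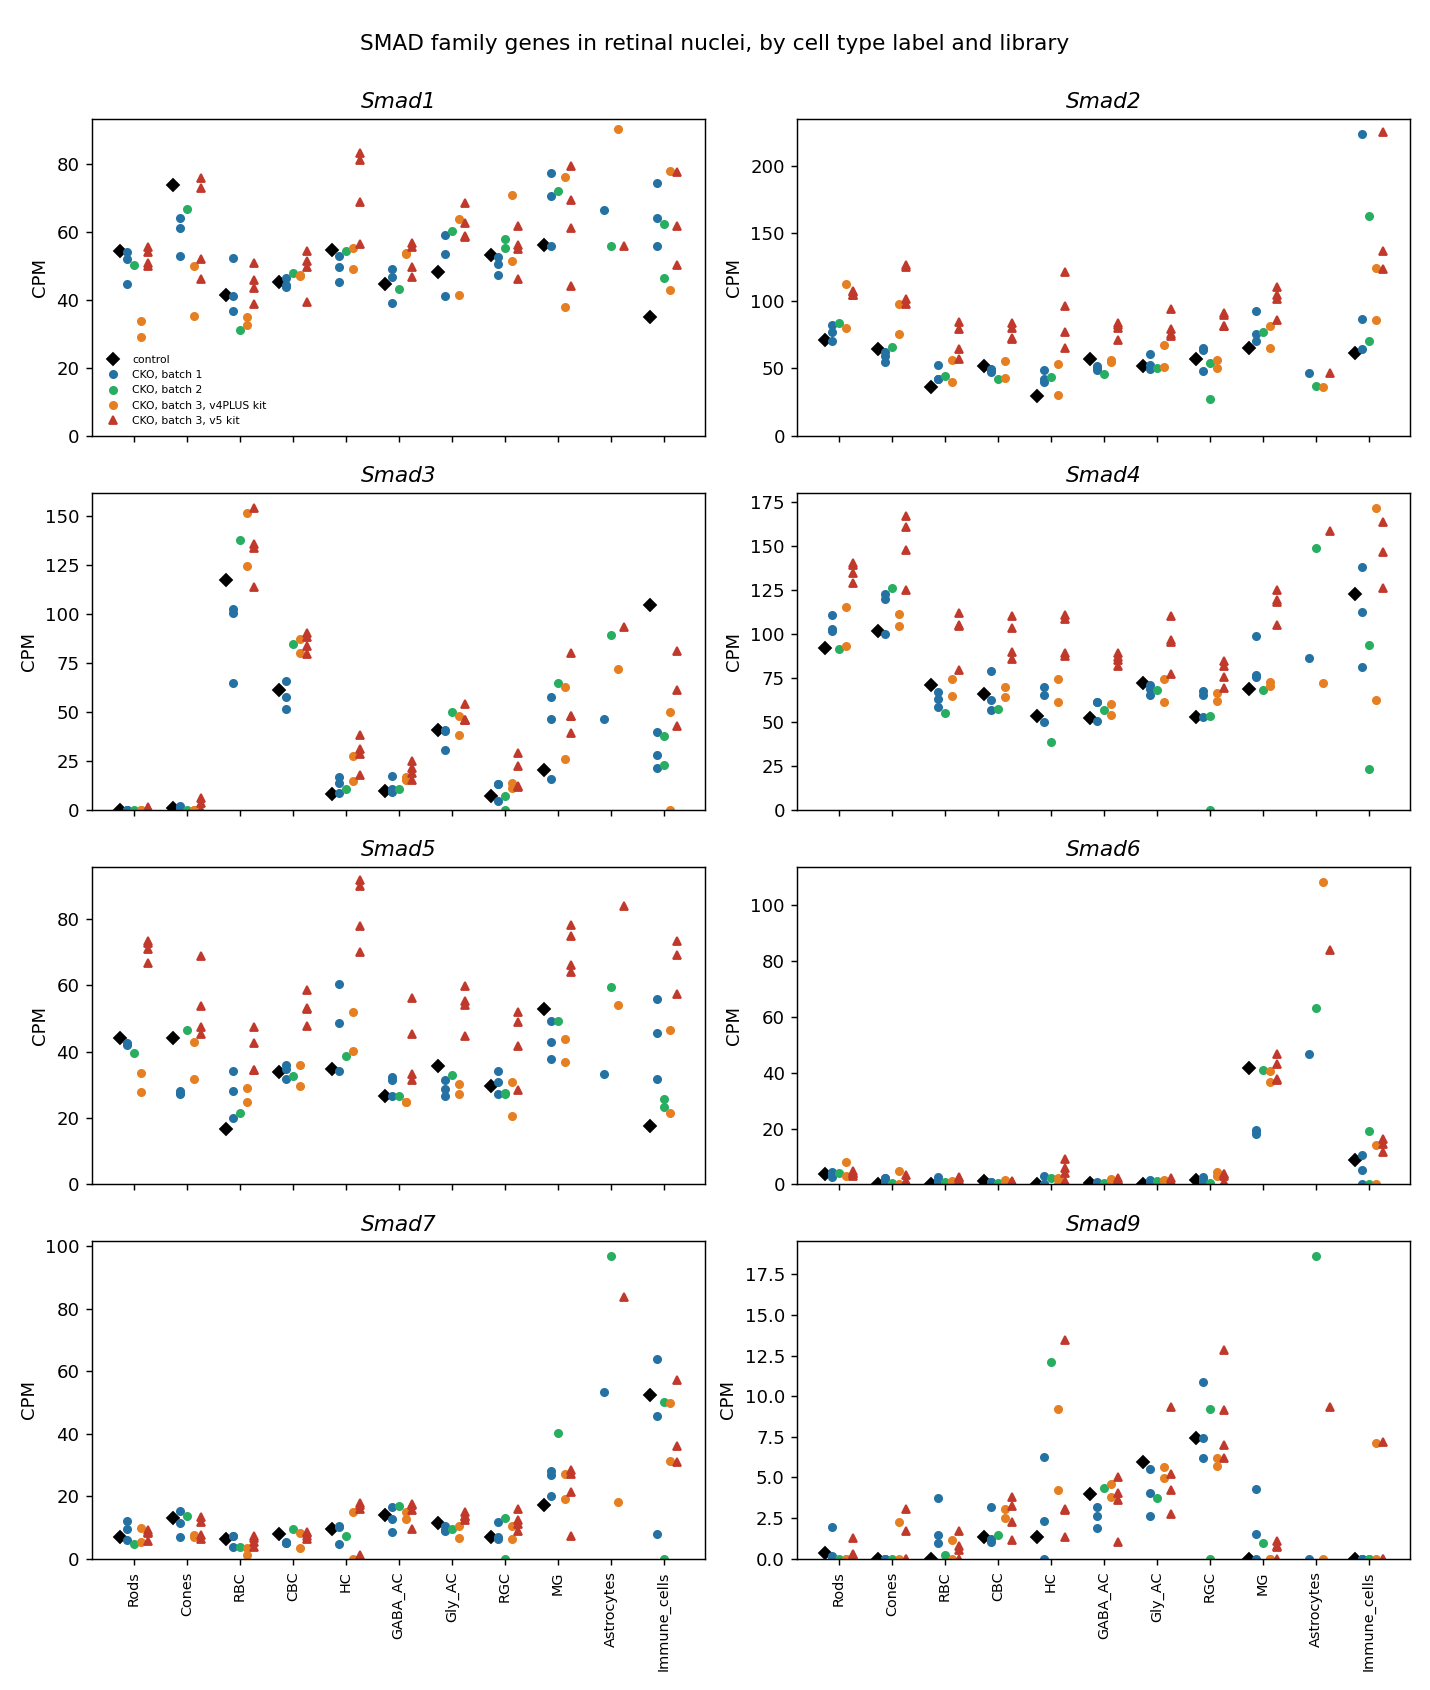
CPM (vertical axis) of each SMAD gene in the 11 retinal labels (horizontal axis), with 1 point per library that has at least 20 nuclei of the label, the control as a black diamond and CKO libraries coloured by batch and kit. *Smad4* and *Smad5* lie higher in the v5 libraries of batch 3 (triangles) in 9 of 10 cell types, a count for which no share over all genes was computed. MG *Smad6* is lower in the 3 CKO libraries of batch 1 (17.9 to 19.3 CPM) than in the control (41.7 CPM).

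The order of retinal cell types was taken from the mean CPM over libraries of both genotypes, and neighbours in the order were compared within libraries with a two-sided sign-flip permutation test, adjusted over 80 neighbouring pairs. Of these pairs, 5 differed at an adjusted p under 0.05. Leaving out the control, or CKO replicates 4 and 5, left 0, and the smallest p these libraries allow was then 0.00195. CKO libraries of batch 3 alone, which allow no p below 0.0313, or a minimum of 50 nuclei, also left 0. Astrocytes had 20 nuclei in only 4 libraries, all of them CKO, so their means hold no control value. The smallest p with these libraries is 0.125, so no pair with Astrocytes could pass. Means rest on the libraries that hold each label, so neighbours can stand in the opposite order within shared libraries, as 6 of the 80 pairs did by their mean difference.

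*Smad3* had the clearest order, with 3 of the 5 pairs. It was highest in RBC, the rod bipolar cells, with a mean of 121 CPM, and next in CBC, the cone bipolar cells, with 75.5 CPM, a difference seen in 11 of 11 libraries (permutation test, adjusted p = 0.0260). Astrocytes (75.3 CPM), MG (46.3 CPM), Immune_cells (44.6 CPM) and Gly_AC, the glycinergic amacrine cells (43.8 CPM), followed without a difference between neighbours. Gly_AC exceeded horizontal cells (HC, 19.7 CPM) in 11 of 11 libraries (adjusted p = 0.0260, permutation test). GABA_AC (15.6 CPM) and ganglion cells (RGC, 12.2 CPM) did not differ, RGC exceeded Cones (1.26 CPM) in 11 of 11 libraries (permutation test, adjusted p = 0.0260), and Rods were at 0.238 CPM. Photoreceptors thus had almost no *Smad3*, with 0 UMIs in the Rods of the control library (upper limit 0.429 CPM).

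*Smad2* had a flatter order. Immune_cells (124 CPM), Rods (90.8 CPM), Cones (84.5 CPM) and MG (84.3 CPM) did not differ from their neighbours, and MG exceeded Gly_AC (64.1 CPM) in 10 of 11 libraries (permutation test, adjusted p = 0.0313). RGC (63.8 CPM), GABA_AC (61.9 CPM), HC (58.8 CPM), CBC (58.6 CPM), RBC (54.4 CPM) and Astrocytes (41.6 CPM) followed with no pair that differed. The shared partner *Smad4* fell from Cones (126 CPM) through Astrocytes (117 CPM), Rods (113.5 CPM), Immune_cells (113 CPM), MG (90.7 CPM), Gly_AC (78.2 CPM), RBC (77.7 CPM), CBC (76.7 CPM), HC (73.5 CPM) and GABA_AC (67.2 CPM) to RGC (60.9 CPM), and no neighbours differed. Rods lay above Immune_cells in only 3 of the 10 libraries that hold both.

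The BMP-branch members gave no pair that differed. *Smad1* was at 67.1 CPM in Astrocytes, 63.7 CPM in MG, 59.2 CPM in Cones and HC, 58.9 CPM in Immune_cells, 56.0 CPM in Gly_AC, 54.9 CPM in RGC, 49.0 CPM in GABA_AC, 48.1 CPM in Rods, 47.0 CPM in CBC and 40.9 CPM in RBC. Astrocytes lay above MG in only 1 of the 4 libraries that hold both. *Smad5* was at 58.1 CPM in HC, 57.7 CPM in Astrocytes, 54.3 CPM in MG, 50.6 CPM in Rods, 42.6 CPM in Immune_cells, 42.2 CPM in Cones, 40.7 CPM in CBC, 38.9 CPM in Gly_AC, 33.3 CPM in RGC, 32.7 CPM in GABA_AC and 30.3 CPM in RBC, and HC lay above Astrocytes in only 1 of 4 shared libraries. *Smad9* was low throughout, from 7.35 CPM in RGC, 6.98 CPM in Astrocytes, 5.11 CPM in HC, 4.91 CPM in Gly_AC and 3.46 CPM in GABA_AC to 2.19 CPM in CBC, 1.30 CPM in Immune_cells and under 1 CPM in RBC, MG, Cones and Rods. Every retinal label thus held *Smad1* and *Smad5*, whereas *Smad5* was at 7.34 CPM or below in the neuronal labels of the control brain.

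The inhibitory members had their highest mean CPM in Astrocytes, MG and Immune_cells, although for *Smad7* no step of the order differed and most of its UMIs lay in neuronal labels (621 in GABA_AC and 470.0 in Rods, against 370.0 in MG and 111 in Immune_cells). *Smad6* was at 75.5 CPM in Astrocytes and 34.7 CPM in MG, and MG exceeded Immune_cells (9.09 CPM) in 10 of 10 libraries (permutation test, adjusted p = 0.0313). Rods were at 4.19 CPM and HC at 2.54 CPM, RGC at 2.17 CPM and Cones at 1.44 CPM, and RBC (1.18 CPM), GABA_AC (1.07 CPM), Gly_AC (0.996 CPM) and CBC (0.804 CPM) came last, with no pair of neighbours among them that differed. *Smad7* was at 63.0 CPM in Astrocytes, 38.6 CPM in Immune_cells, 23.8 CPM in MG, 14.2 CPM in GABA_AC, 10.9 CPM in Gly_AC, 10.3 CPM in Cones, 9.88 CPM in HC, 9.18 CPM in RGC, 7.83 CPM in Rods, 6.76 CPM in CBC and 5.02 CPM in RBC, and no neighbours differed.

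Genes with the most similar pattern were sought by the Pearson correlation of log2(CPM + 5) over the 20 labels of the control brain library with at least 100000 UMIs, among 13033 genes. All points share that library, and the labels differ in depth, so the coefficients are descriptions. *Smad1* was most like *Sipa1l2* (r = 0.822), *Rbl1* and *Exosc8*, and *Smad5* most like *Tgif1* (0.961), *St3gal6* and *Serpinb6b*. The pattern closest to *Smad9* was that of *Pkhd1* (0.771), before *Ephx2* and *Gm29683*. *Smad2* was nearest to *Rsrc1* (0.908), *Mier1* and *Zzz3*, *Smad3* to *Tead1* (0.730), *Il15* and *Gm17491*, and *Smad4* to *Wwc2* (0.902), *Gtf2e2* and *Spata1*. Of the inhibitory members, *Smad6* was closest to *Il15* (0.959), *Tmem176b* and *Parp12*, and *Smad7* to *Litaf* (0.934), *Lbr* and *Frmd8*. *Tgif1*, a SMAD corepressor, was the only gene of the pathway lists among these.

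The promoters of *Smad6* and *Smad1* are shown because these genes moved in opposite directions in brain ECs and have an entry among the RefSeq promoters, as do 5 of 8 members. *Smad2*, *Smad4* and *Smad7* have no entry. The sequences are the 250 bases before the start, 5′ to 3′, in the GRCm38.p6 build, at chr9:64022060-64022309 (minus strand) for *Smad6* and chr8:79399429-79399678 (minus strand) for *Smad1*. The motifs AGAC, the SMAD box (read as GTCT on the other strand), its palindrome GTCTAGAC, which contains it, and the GC-rich motifs GGCGCC and GCCGNCGC were searched on both strands, and capitals mark every match.
Smad6: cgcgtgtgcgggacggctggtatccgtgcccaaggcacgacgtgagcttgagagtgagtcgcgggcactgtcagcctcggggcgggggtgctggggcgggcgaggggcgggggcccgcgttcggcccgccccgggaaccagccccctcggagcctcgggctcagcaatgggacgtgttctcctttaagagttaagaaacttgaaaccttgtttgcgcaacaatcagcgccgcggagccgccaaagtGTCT
Smad1: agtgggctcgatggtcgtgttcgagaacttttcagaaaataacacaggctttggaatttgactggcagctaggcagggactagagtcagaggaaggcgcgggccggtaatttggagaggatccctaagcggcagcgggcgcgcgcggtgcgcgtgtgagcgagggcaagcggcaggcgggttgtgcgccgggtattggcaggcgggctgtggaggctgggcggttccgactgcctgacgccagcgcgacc
*Smad6* had 1 match, to AGAC, and *Smad1* had 0 matches to any of the 4. Of 32851 promoters of this length, 82.9% held AGAC, 0.167% GTCTAGAC, 9.59% GGCGCC and 6.89% GCCGNCGC. The GC content was 66.8% for *Smad6* and 63.6% for *Smad1*, against a median of 52.4% over all promoters. A match describes these letters only.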

How the data were processed

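The authors aligned the snRNAseq reads to GRCm39 with PIPseeker, removed empty droplets and background with CellBender and doublets with SOLO, curated clusters by hand and deposited whole UMI counts per gene and nucleus. The submitters' processing notes name Seurat and mm10. Cell type, batch and kit are the authors' deposited labels, and the nuclei were not filtered further. The members and the gene lists were chosen with earlier results of these data known. Named genes are all members and *Tgfbr1*, the 3 most similar genes per member, list genes past 1.5-fold in brain ECs with at least 100 UMIs (1 target left unnamed), and list genes past the threshold in the retina.

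UMIs were summed per library and label. Retinal labels with at least 20 nuclei in a library were fitted with edgeR 4.0.16 (filterByExpr, TMM, batch as covariate, Benjamini-Hochberg over all genes, threshold 0.05), with DESeq2 1.42.0 as an alternative, in R 4.3.3. Libraries, not nuclei, were the replicates. The fitting script was tested on simulated data. Sign-flip and exact permutation tests, Poisson intervals and conditional binomial intervals used Python 3.11.15, scipy 1.17.1, numpy 2.4.6 and pandas 2.3.3, and plots matplotlib 3.10.9. Gene positions come from GENCODE vM39 and promoters from RefSeq. After the data were seen, alternatives were added with batch and kit as covariates, with libraries of the control's kit only, without CKO replicates 4 and 5 in the permutation tests, and with EC nuclei lacking smooth muscle marker UMIs.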

Additional observations from a re-analysis of the deposited data

Results flagged for a closer look

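*Smad1* went in opposite directions between brain ECs and 2 neuronal labels. In ECs the CKO over control ratio was 1.61, whereas it was 0.485 in Glut_0 and 0.646 in Glut_1, each from at least 200 UMIs in 1 library per genotype. Under TMM scaling the EC ratio was 1.497, just under the 1.5-fold used, and *Smad1* in Glut_1 also came just inside it. *Smad1* in Glut_0 stayed past the fold. The difference between labels was not tested. Genotype and the sex makeup of the pools cannot be told apart in any of them.

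In the retina, 57 groups of CKO libraries were searched for a library far from the others. Each was a SMAD gene in a cell type other than RGC, with a median of at least 10 CPM. In these groups 0 such libraries were found, where chance gives about 1 in 20 groups. RGC, with 11 CKO libraries, was not searched. There *Smad4* was at 0, 66.4 and 84.8 CPM as the lowest, median and highest CKO library.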

How the results depend on the processing

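No SMAD gene was called in a retinal cell type under any of 12 alternatives, which include DESeq2, other covariates, no filter on low counts, libraries of the control's batch or kit only, and leaving out each batch 1 CKO replicate in turn, whereas calls over all genes ranged from 4 to 244. The *Smad6* log2 fold change in MG kept its sign in all 12, from −1.24 to −0.36, with adjusted p from 0.183 to 0.992. The number of member tests in which the control stood at the smallest permutation p was 2 with all libraries and 3 without CKO replicates 4 and 5. It was 12 of 54 with libraries of the control's batch only and 4 of 63 with those of its kit only, where fewer libraries were compared (20.8% and 7.12% of all genes).

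The 5 neighbouring pairs of retinal cell types that differed were 5 on the log2(CPM + 1) scale. They were 0 with CKO libraries only, 0 with those of batch 3 only, 0 without CKO replicates 4 and 5, and 0 with at least 50 nuclei per label. The first 3 of these allow no p below 0.00195, 0.0313 and 0.00195, and for the last the cause was not tested. Over 80 pairs, a p of 0.0313 passes the adjustment only if most pairs reach it, so no conclusion is drawn from batch 3 alone. A p of 0.00195 passes once a few pairs reach it.

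In brain ECs, 3 of 7 members passed 1.5-fold (23.0% of all genes). At a fold of 2 this was 1 (*Smad7*, 7.71%). It was 3 at the lowest fold tried (46.8%) and with nuclei weighted equally (45.7%), and 2 or 3 otherwise (21.4% to 28.8%), with *Smad1* below 1.5 under TMM scaling and without cell cycle or smooth muscle marker UMIs. Nuclei with few pericyte markers gave no count, since no member reached 200 UMIs. No member past the fold reversed. No paired analysis was possible because the groups compared share only replicate number 1, with a single control library each. Depth limits the labels with few nuclei most, above all Immune_cells, HC and retinal Astrocytes, and the CKO sums of pericytes, microglia and GABA_22 in the brain.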
